A study of Mus musculus with 12 samples.

Results

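The genes described here encode receptors and adaptors through which innate immune cells and airway epithelium sense components of house dust mite (HDM) extract. They are 5 genes of Toll-like receptor sensing (Tlr2, Tlr4, Cd14, Ly96 and Myd88) and 5 genes of C-type lectin sensing (Clec7a, Clec4n, Clec4e, Clec4d and Fcer1g). They were listed by symbol and role, not by a threshold on measured values, but with earlier results of these data known. Each of the 10 was represented by its only probe set with a single gene symbol, out of 19937 genes measured in that way. Whole lung RNA of 12 Balb/c mice was hybridised to Affymetrix arrays, 1 array for each mouse, with 3 mice in each of 4 groups. Eosinophilic mice were injected intraperitoneally 3 times, on days 0, 7 and 21, with HDM extract (0.75 DU, development units, of each of the mite allergen preparations Der f and Der p) on 1.5 mg of aluminium hydroxide, and the nose was challenged with a like dose on days 26 to 28. Mixed mice received 0.75 DU of each preparation into the nose in 4 weekly applications, without injection or adjuvant. Neutrophilic mice received 7.5 DU of each on the same weekly intranasal schedule. Control mice received only PBS into the nose and no alum, so the eosinophilic mice differed from controls in adjuvant and route as well as in HDM. The group names are those of the labels, and no cell counts were analysed here. The mice carried no stated genetic change.

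Toll-like receptors detect microbial molecules. Cd14 is a lipid-binding protein that passes lipopolysaccharide to the complex of Tlr4 with its co-receptor Ly96, and Tlr2 senses bacterial lipopeptides. Myd88 is the cytoplasmic adaptor that carries the signal of most Toll-like receptors, and of the receptors for interleukins of the IL-1 family, to NF-kB. A mite allergen of the Der p group resembles Ly96 in structure and can load the Tlr4 complex. The C-type lectin receptor genes encode sugar- and lipid-binding receptors of myeloid cells: Clec7a (Dectin-1) binds beta-glucan of fungal walls, Clec4n (Dectin-2) binds mannose-rich glycans and is a known receptor for HDM extract, and Clec4e (Mincle) and Clec4d (MCL) bind glycolipids. Clec7a carries its own tyrosine signalling motif, whereas the 3 Clec4 receptors signal through the adaptor chain Fcer1g, and all lead to the kinase Syk and to Card9.

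Cd14 was the sensing gene that differed most from control in both weekly intranasal models. It was 20.7-fold higher in mixed and 18.9-fold higher in neutrophilic lung than in control lung, and ranked 19th and 17th by size of rise among all 19937 genes. Clec4d, a lectin gene next to Clec4e on chromosome 6, rose in neutrophilic lung, and Clec4e, Clec4d and the adaptor gene Myd88 rose in both models once 1 outlying eosinophilic array was left out of the fit. Tlr4 and Ly96, the partners of Cd14, were not called against control in any of the 3 models over 12 or 11 arrays. In eosinophilic lung the estimates of Clec4e and Cd14 were the furthest from control, and Cd14 was called only without that array.

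The values are log2 intensities per probe set as the authors deposited them, and 1 unit is a doubling. They were compared with limma, a linear model fitted over all genes with moderated variances, and a gene was called at an adjusted p (Benjamini-Hochberg, over all 19937 genes) under 0.05. Before any comparison 1 array stood apart, that of eosinophilic mouse 7. Over all probe sets its values had an SD of 0.995 log2, and their Pearson correlation with the probe-wise median of the remaining 11 arrays was 0.356. SDs were also low for mouse 9 of the eosinophilic group (1.52) and mouse 23 of the neutrophilic group (1.51), against 1.77 to 2.04 on the other 9, so the deposited columns did not share 1 distribution. Tests of the 10 genes against control are therefore given over all 12 arrays and again over 11, without mouse 7, because 1 pooled error per gene serves all comparisons. With 1 array for each mouse, the spread behind the p-values joins differences between mice with those between arrays. Over 12 arrays it takes in the array of mouse 7 in every comparison. Lung markers were bright (Sftpc, a surfactant gene, had a lowest value of 7.38, a median of 14.02 and a highest value of 14.31), liver Alb had a median of 4.58, and the heart gene Tnnt2 ran between 5.99 and 10.38. The scatter of arrays within groups, and the place of mouse 7, can be seen in the plot of the 10 genes by array.

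**Figure D1:**
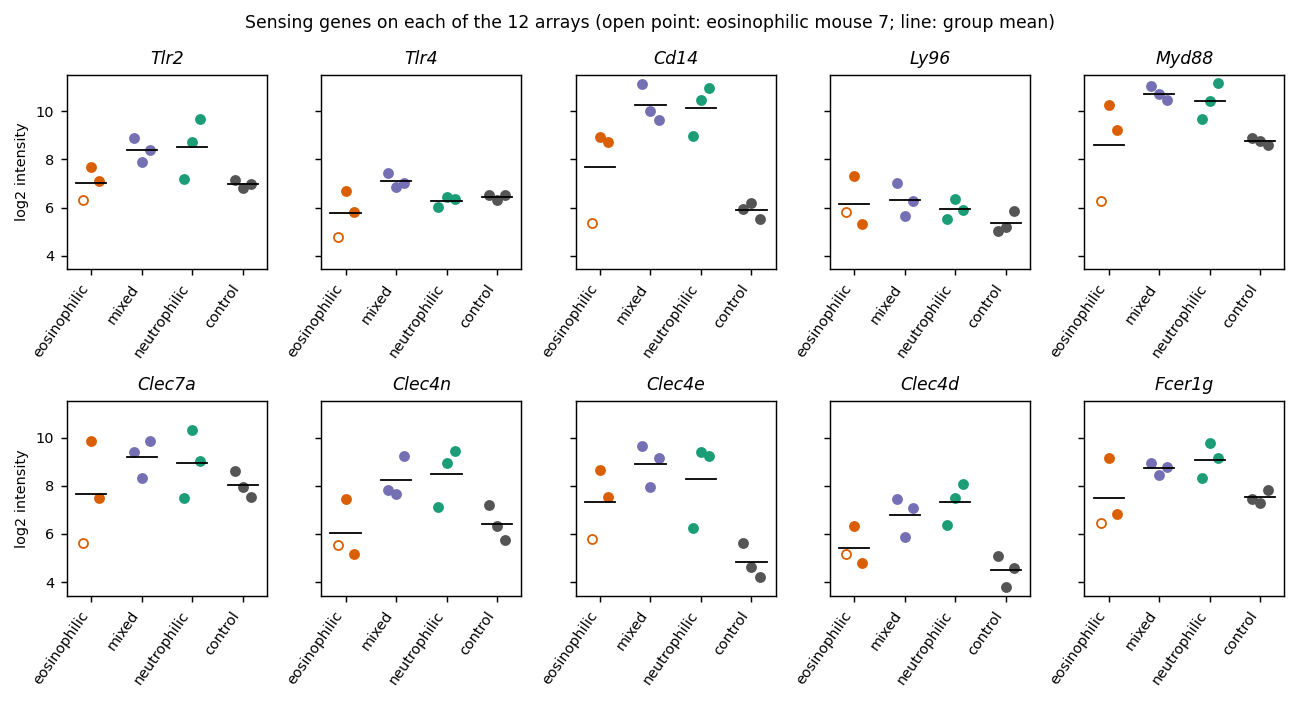
Log2 intensity (vertical axis) of the 10 sensing genes on each of the 12 arrays, by group (horizontal axis). Each point is 1 mouse, lines are group means, and the open point is eosinophilic mouse 7, which has the lowest Cd14 value of the HDM groups (5.36). All mixed and neutrophilic points of Cd14 lie above all control points.

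What the low intranasal dose changed was read against PBS. Over all 12 arrays 1 of the 10 sensing genes rose in mixed mice (Cd14) and none fell, where 0.326% of all genes tested were called higher and 0.145% lower. Without mouse 7 the number that rose was 4 (Cd14, Myd88, Clec4e and Clec4d) and none fell, against 1.41% of all genes called higher and 1.57% lower. In 8 of the 10 genes every mixed array lay above every control array, which held for 9.16% of all genes. Their median log2 change was 1.61, beside 0.00 for all genes, and all 10 estimates were above 0.

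In neutrophilic mice, which received the high intranasal dose, 2 of the 10 rose over all 12 arrays (Cd14 and Clec4d) and none fell, against 0.662% of all genes called higher and 1.45% lower. Without mouse 7 Cd14, Myd88, Clec4e and Clec4d rose and none fell, against 2.24% of all genes called higher and 7.23% lower. In 6 of the 10 every neutrophilic array lay above every control array, as in 12.6% of all genes. The median log2 change was 1.62, beside 0.05 for all genes, with Tlr4 the only estimate below 0.

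In eosinophilic mice none of the 10 was called by limma over all 12 arrays (2 had an unadjusted p under 0.05, Cd14 and Clec4e, as did 28.2% of all genes), where 0.0752% of all genes were called higher and 0.421% lower. Without mouse 7, which leaves 2 eosinophilic arrays, Cd14 rose and the other 9 were not called, against 0.451% of all genes called higher and 0.883% lower. For 1 gene, Clec4e, every eosinophilic array lay above every control array, as in 11.1% of all genes. Without mouse 7 this held for 3 (Cd14, Myd88 and Clec4e), against 14.6% of all genes. The median log2 change was 0.01 with all 12 arrays and 0.80 without mouse 7, beside 0.01 for all genes in either fit. These 3 comparisons share their control arrays, so an unusual control value enters all of them.

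**Figure D2:**
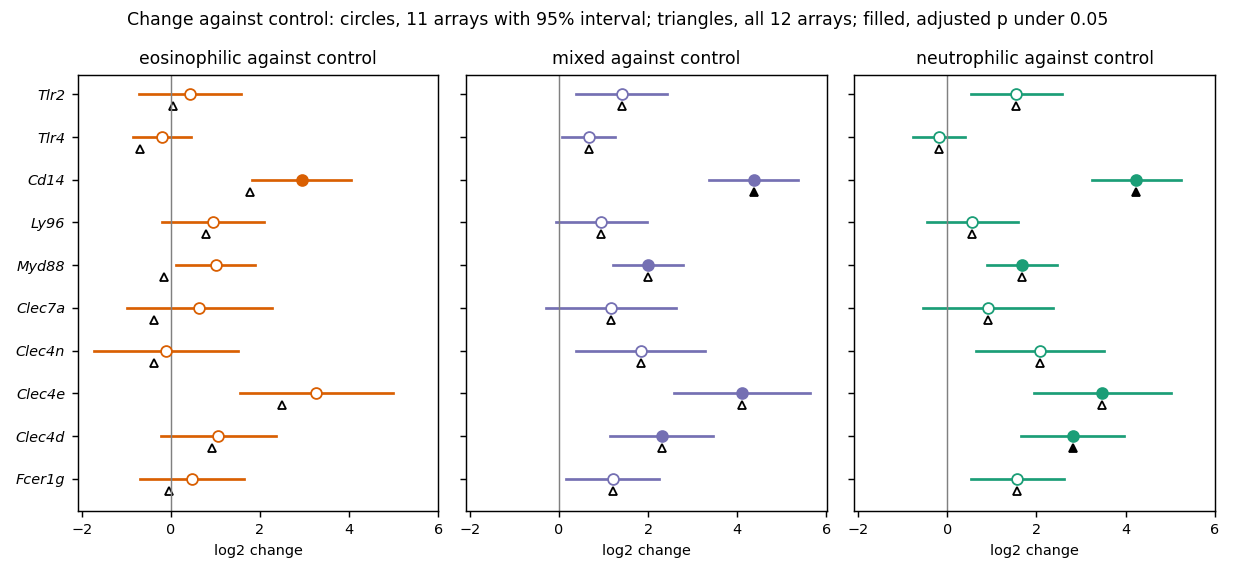
Log2 change against control (horizontal axis) of each sensing gene in eosinophilic, mixed and neutrophilic mice. Circles with bars are estimates and 95% intervals over 11 arrays, triangles are estimates over all 12 arrays, and filled symbols have an adjusted p under 0.05. Cd14 is filled in all 3 panels over 11 arrays, and Tlr4 lies nearest 0 in neutrophilic mice.

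Cd14 measured 5.36, 8.93 and 8.72 log2 in eosinophilic mice 7, 8 and 9. It measured 11.12, 9.99 and 9.65 in mixed mice and 8.98, 10.46 and 10.95 in neutrophilic mice, against 5.96, 6.20 and 5.51 in control mice. Every HDM array but that of mouse 7 was above the highest control array. The mean was 10.26 ± 0.77 in mixed and 10.13 ± 1.02 in neutrophilic mice, against 5.89 ± 0.35 in control mice (SD, n = 3 each). The log2 change was 4.37 (SE 0.81, adjusted p = 0.0385) in mixed and 4.24 (SE 0.81, adjusted p = 0.0215) in neutrophilic mice over 12 arrays. Over 11 arrays the same changes had an SE of 0.46 and adjusted p of 0.000216 and 0.000207. The calls over 12 arrays did not outlast the loss of a further array: the mixed call ended without any 1 of the 6 arrays compared (adjusted p between 0.113 and 0.19) and the neutrophilic call without any but mouse 23 (0.0829 to 0.104). Quantile normalization of 12 arrays also ended the mixed call (0.0584). Within the 11 arrays both were kept whichever further array was left out (adjusted p up to 0.00354 in mixed and 0.00207 in neutrophilic mice). In eosinophilic mice the change was 1.78 (SE 0.81, adjusted p = 0.176) with mouse 7 and 2.93 (SE 0.52, adjusted p = 0.0187, n = 2 and 3) without it, which is 7.65-fold. That last call was lost when any control mouse or mouse 9 was left out as well (adjusted p between 0.0655 and 0.0835), and kept without mouse 8 (0.0148).

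Tlr4, the lipopolysaccharide receptor itself, measured 4.78, 6.68 and 5.83 in eosinophilic, 7.43, 6.88 and 7.04 in mixed and 6.01, 6.44 and 6.35 in neutrophilic mice, against 6.53, 6.31 and 6.52 in control mice. Mixed values all lay above the control values, whereas neutrophilic and control values overlapped. Its log2 change was 0.66 in mixed (95% interval over 12 arrays -0.21 to 1.53, adjusted p = 0.92) and -0.19 in neutrophilic mice (-1.06 to 0.68, adjusted p = 0.854). Over 11 arrays the intervals were 0.07 to 1.25 in mixed and -0.78 to 0.40 in neutrophilic mice. The unadjusted p in limma was then 0.0306 and 0.499, and the adjusted p 0.296 and 0.694. In eosinophilic mice the Tlr4 change was -0.69 (adjusted p = 0.241) over 12 arrays and -0.20 (0.754) over 11. It was called lower, at -1.15 (0.0193), in the fit without mouse 8, which leaves mice 7 and 9, both of low SD. That fit called 8264 of all 19937 genes, so the call is not particular to Tlr4. Ly96, its co-receptor, measured 5.84, 7.32 and 5.31 in eosinophilic, 7.02, 5.63 and 6.28 in mixed and 5.53, 6.36 and 5.90 in neutrophilic mice, against 5.03, 5.21 and 5.87 in control mice. Control mouse 3 lay within the range of each HDM group for Ly96, so none of the 3 separated from control mice. The Ly96 changes of 0.79, 0.94 and 0.56 in eosinophilic, mixed and neutrophilic mice had adjusted p of 0.276, 0.794 and 0.662 over 12 arrays. Over 11 they were 0.95, 0.94 and 0.56, with adjusted p of 0.38, 0.456 and 0.495. The interval of the neutrophilic Ly96 change, -0.53 to 1.66 over 12 arrays, excluded a rise of the size of the Cd14 estimate.

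Tlr2, the lipopeptide receptor, measured 6.31, 7.70 and 7.12 in eosinophilic, 8.88, 7.88 and 8.39 in mixed and 7.20, 8.72 and 9.67 in neutrophilic mice, against 7.14, 6.84 and 6.97 in control mice. All 6 arrays of the intranasal models were above all 3 control arrays, neutrophilic mouse 23 by little. Its log2 change was 1.40 (SE 0.54, adjusted p = 0.446) in mixed and 1.55 (SE 0.54, adjusted p = 0.178) in neutrophilic mice, and over 11 arrays the adjusted p was 0.169 and 0.0592. The eosinophilic change was 0.06 (adjusted p = 0.942) with mouse 7 and 0.43 (0.697) without it. Tlr2 was therefore not called in either fit. In neutrophilic mice it was called when mouse 23 was left out together with mouse 7 (adjusted p = 0.00188).

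Myd88, the shared adaptor, measured 6.28, 10.27 and 9.23 in eosinophilic, 11.03, 10.71 and 10.45 in mixed and 9.68, 10.43 and 11.16 in neutrophilic mice, against 8.89, 8.76 and 8.59 in control mice. Only mouse 7 among the 9 HDM arrays was below the controls. In mixed mice the log2 change was 1.99, or 3.96-fold, with adjusted p = 0.43 over 12 arrays (SE 0.76) and 0.00971 over 11 (SE 0.36). In neutrophilic mice it was 1.68, or 3.19-fold, with adjusted p = 0.328 and 0.012 in these fits. The gene was thus called in both intranasal models over 11 arrays and in neither over 12. Leaving out control mouse 2 as well ended both calls (adjusted p = 0.0551 in mixed and 0.0541 in neutrophilic mice). In eosinophilic mice the estimate was -0.15 with mouse 7 and 1.0 without it (adjusted p = 0.889 and 0.246).

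RefSeq sequences upstream of the start on GRCm38.p6 were matched for 6 of the 10 genes. The 250 bases before the start are shown for Tlr2 and Myd88, the Toll-like receptor genes among the 6, 5′ to 3′ on the strand of the gene. Capitals mark matches to letter patterns searched on both strands: NF-kB (GGG and CC with 5 bases between), C/EBP (TTGCNNNAA), STAT (TTCNNNGAA), STAT6 (TTC and GAA with 4 bases between), PU.1 (GAGGAAGT) and AP-1 (TGANTCA).
Tlr2, chr3:83841609-83841858, minus strand: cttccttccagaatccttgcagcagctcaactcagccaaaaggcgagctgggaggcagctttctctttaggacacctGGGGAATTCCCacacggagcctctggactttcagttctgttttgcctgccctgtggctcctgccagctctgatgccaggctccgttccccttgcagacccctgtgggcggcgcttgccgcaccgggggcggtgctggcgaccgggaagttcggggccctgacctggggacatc
Myd88, chr9:119340019-119340268, minus strand: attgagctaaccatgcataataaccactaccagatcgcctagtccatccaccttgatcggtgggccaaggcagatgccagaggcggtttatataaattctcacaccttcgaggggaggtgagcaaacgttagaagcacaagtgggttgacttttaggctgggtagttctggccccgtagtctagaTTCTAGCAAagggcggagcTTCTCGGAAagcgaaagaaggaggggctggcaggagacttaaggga
The Tlr2 window held 2 overlapping NF-kB matches at bases 173 to 164 and 172 to 163 before the start, a pattern that 45.4% of 27025 promoter windows of the same length held at least once. The Myd88 window held a C/EBP match at bases 65 to 57 (8.28% of windows) and a STAT match at bases 46 to 38 (7.18% of windows). A match describes letters and is no measurement of binding.

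Clec4e (Mincle) measured 5.79, 8.66 and 7.52 in eosinophilic, 9.66, 7.95 and 9.16 in mixed and 6.26, 9.41 and 9.23 in neutrophilic mice, against 5.64, 4.61 and 4.22 in control mice. All 9 HDM arrays were above all 3 controls, with mouse 7 and neutrophilic mouse 23 the closest to them. The log2 change was 4.10 in mixed (SE 0.86, adjusted p = 0.0622) and 3.48 in neutrophilic mice (SE 0.86, adjusted p = 0.0604) over 12 arrays, just short of the threshold. Over 11 arrays both passed, at adjusted p = 0.00695 and 0.00893. Over these 11 arrays each remained called whichever further array of the 2 groups compared was left out, with adjusted p up to 0.0445 in mixed and 0.0456 in neutrophilic mice. In eosinophilic mice the change was 2.50 (adjusted p = 0.124) with mouse 7 and 3.27 without it (adjusted p = 0.0669). The control mean of 4.82 lay under log2 5, the floor used for dim genes, and no detection call was used, so no fold is given.

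Clec4d (MCL), which forms a heteromer with Mincle, measured 5.17, 6.35 and 4.79 in eosinophilic, 7.47, 5.86 and 7.07 in mixed and 6.35, 7.49 and 8.09 in neutrophilic mice, against 5.09, 3.80 and 4.61 in control mice. Mixed and neutrophilic arrays were all above the controls, and eosinophilic mouse 9 was within the control range. The gene rose in neutrophilic mice in both fits (log2 2.81, adjusted p = 0.0272 over 12 arrays and 0.00607 over 11). The 12-array call was kept without mouse 23 (0.0196) and ended without any other array compared (0.079 to 0.16), and the 11-array call was kept in all 6 such fits (up to 0.041). In mixed mice its log2 change of 2.30 passed over 11 arrays (adjusted p = 0.0348) and not over 12 (0.12). The mixed call was kept in 1 of 6 fits that left out a further array of the 2 groups, that without mixed mouse 16 (adjusted p = 0.0332). The eosinophilic change was 0.93 (adjusted p = 0.257) with mouse 7 and 1.07 (0.384) without it. The control mean of Clec4d was again under log2 5 (4.50), and no fold is given.

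Clec4n (Dectin-2) measured 5.52, 7.45 and 5.17 in eosinophilic, 7.84, 7.65 and 9.25 in mixed and 7.11, 8.96 and 9.44 in neutrophilic mice, against 7.21, 6.32 and 5.73 in control mice. Mixed arrays were above all controls, while neutrophilic mouse 23 lay below control mouse 1. The log2 change was 1.83 in mixed and 2.08 in neutrophilic mice (SE 0.72 each), and neither was called over 12 arrays (adjusted p = 0.457 and 0.169) or 11 (0.207 and 0.0686). The neutrophilic change was called when mouse 23 was left out together with mouse 7 (0.0153). In eosinophilic mice it was -0.37 with mouse 7 and -0.11 without it (adjusted p = 0.707 and 0.949).

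Clec7a (Dectin-1) measured 5.62, 9.86 and 7.47 in eosinophilic, 9.39, 8.34 and 9.84 in mixed and 7.50, 10.29 and 9.03 in neutrophilic mice, against 8.60, 7.96 and 7.51 in control mice. Each HDM group overlapped the controls. Its log2 change was 1.17 (95% interval over 12 arrays -0.81 to 3.15, adjusted p = 1) in mixed and 0.92 (-1.06 to 2.90, adjusted p = 0.691) in neutrophilic mice, wide enough to include both 0 and the Clec4d estimates. Over 11 arrays the Clec7a adjusted p was 0.577 in mixed and 0.438 in neutrophilic mice. Its eosinophilic change was -0.37 (adjusted p = 0.77) with mouse 7 and 0.64 (0.678) without it. Fcer1g, the adaptor chain of the Clec4 receptors and of Fc receptors, measured 6.46, 9.14 and 6.84 in eosinophilic, 8.93, 8.46 and 8.77 in mixed and 8.32, 9.78 and 9.16 in neutrophilic mice, against 7.44, 7.30 and 7.83 in control mice. All arrays of both intranasal models were above all controls, and eosinophilic mice 7 and 9 were below them. Its change was 1.20 in mixed and 1.57 in neutrophilic mice (adjusted p = 0.689 and 0.211 over 12 arrays, 0.283 and 0.0606 over 11). It was called in neutrophilic mice when mouse 23 was left out together with mouse 7 (adjusted p = 0.028). The eosinophilic Fcer1g change was -0.04 (adjusted p = 0.962) with mouse 7 and 0.47 (0.671) without it.

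In the RefSeq gene order Clec4n, Clec4d and Clec4e follow each other on chromosome 6, with Clec4b2 before and Vmn2r19 after them, and Clec7a lies elsewhere on that chromosome between Clec1a and Olr1. The upstream windows of Clec4e and Clec4d, called in both intranasal models over 11 arrays, and of Clec7a and the adaptor gene Fcer1g, which were not called in either fit, are shown with the same patterns searched.
Clec4e, chr6:123289872-123290121, minus strand: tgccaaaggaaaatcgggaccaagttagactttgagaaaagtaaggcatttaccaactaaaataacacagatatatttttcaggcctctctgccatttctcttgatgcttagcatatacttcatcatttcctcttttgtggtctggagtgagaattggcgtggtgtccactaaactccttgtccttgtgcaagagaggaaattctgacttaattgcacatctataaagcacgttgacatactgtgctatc
Clec4d, chr6:123261857-123262106, plus strand: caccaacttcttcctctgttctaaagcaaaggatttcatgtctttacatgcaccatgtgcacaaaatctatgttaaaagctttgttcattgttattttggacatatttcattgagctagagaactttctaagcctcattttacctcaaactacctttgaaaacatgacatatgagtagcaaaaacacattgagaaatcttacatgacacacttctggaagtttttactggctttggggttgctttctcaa
Clec7a, chr6:129472780-129473029, minus strand: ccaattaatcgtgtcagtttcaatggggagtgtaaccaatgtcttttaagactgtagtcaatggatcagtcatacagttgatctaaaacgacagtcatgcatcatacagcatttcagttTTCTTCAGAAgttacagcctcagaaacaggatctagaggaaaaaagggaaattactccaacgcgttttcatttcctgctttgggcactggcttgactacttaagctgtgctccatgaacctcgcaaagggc
Fcer1g, chr1:171234350-171234599, minus strand: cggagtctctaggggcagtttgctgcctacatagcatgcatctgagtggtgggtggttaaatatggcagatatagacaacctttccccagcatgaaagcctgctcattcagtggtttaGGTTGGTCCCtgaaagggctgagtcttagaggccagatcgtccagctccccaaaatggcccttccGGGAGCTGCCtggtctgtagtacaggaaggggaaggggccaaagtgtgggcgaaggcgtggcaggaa
None of the 6 patterns was found in the Clec4e or Clec4d window. The Clec7a window held a STAT6 match at bases 131 to 122 before the start, as 5.86% of all windows did. The table lists 2 starts for Clec7a, and the window shown belongs to the first listed. The Fcer1g window held 2 separate NF-kB matches, at bases 132 to 123 and 67 to 58.

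The direct comparison of neutrophilic with mixed mice asked what the higher intranasal dose added. None of the 10 genes was called over 12 or 11 arrays (limma, 0% of all genes called in either fit). No sensing gene had an unadjusted p under 0.05 over 12 arrays, beside 3.1% of all genes. Over 11 arrays 1 had, Tlr4 (unadjusted p = 0.00795), beside 7.32% of all genes. The estimates ran between -0.85 (Tlr4) and 0.51 (Clec4d) on the log2 scale, with 4 above 0. For Cd14 the difference was -0.12 with a 95% interval of -1.89 to 1.64 over 12 arrays and -1.12 to 0.87 over 11, which leaves a difference in either direction unresolved. Tlr4 was the 1 gene whose groups did not overlap, with every neutrophilic array below every mixed array, as for 9.37% of all genes (difference -0.85, interval -1.72 to 0.02 over 12 arrays and -1.44 to -0.26 over 11, adjusted p = 1 and 0.503).

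The comparison of mixed with eosinophilic mice sets intranasal exposure against the alum route, with the same allergen dose in each application. No sensing gene was called over 12 or 11 arrays (limma, 0.00502% and 0.0502% of all genes called). An unadjusted p under 0.05 was found for 6 of the 10 over 12 arrays and 4 over 11, and for 16.7% and 7.24% of all genes. All 10 estimates were higher in mixed mice over 12 arrays and 9 over 11. Without mouse 7 the largest was that of Clec4n (1.94, 95% interval 0.33 to 3.55, adjusted p = 0.667), and Cd14 was 1.43 higher (0.32 to 2.55, adjusted p = 0.647). Every mixed array was above every eosinophilic array for 5 of the 10 genes, against 6.91% of all genes over 12 arrays and 9.33% over 11. Without mouse 8, which leaves mice 7 and 9, 8 of the 10 were called and 5979 genes in all.

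Between neutrophilic and eosinophilic mice no sensing gene was called either (limma, 0.115% of all genes called over 12 arrays and 0.191% over 11). An unadjusted p under 0.05 was found for 6 of the 10 over 12 arrays and 3 over 11, beside 10.2% and 7.78% of all genes. Over 11 arrays Clec4n was 2.19 higher (95% interval 0.59 to 3.80, adjusted p = 0.466) and Clec4d 1.74 higher (0.45 to 3.03, adjusted p = 0.473) in neutrophilic mice. Clec4e differed by 0.21 (-1.51 to 1.92). Every neutrophilic array was above every eosinophilic array for 2 genes, Cd14 and Clec4d, against 4.21% of all genes over 12 arrays and 7.29% over 11. Without mouse 8, 5 of the 10 were called and 2777 genes in all.

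Within a group the 10 genes tended to be high or low in the same mouse. All 10 were highest in mouse 8 among eosinophilic mice, and 7 were lowest in mouse 7 and 3 in mouse 9. All 10 were lowest in mouse 23 among neutrophilic mice. In mixed mice 8 were highest in mouse 15 and 8 lowest in mouse 16. The arrays of mice 7, 9 and 23 are those with low SDs, and mouse 16 had the lowest SD of the mixed arrays (1.77). Mice 16 and 23 also had the highest mean of 9 heart, liver and thymus genes, 1.01 and 0.94 log2 above the control mean, against -0.22 to 0.38 on the other 10 arrays. The part of array spread and of such tissue in this order was not tested.

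Other genes of the same pathways are given by count over 11 arrays, with the counts over 12 beside them. For these lists and the marker lists below, the background is the share of all genes called over 11 arrays. It was 0.451% higher and 0.883% lower in eosinophilic, 1.41% and 1.57% in mixed, and 2.24% and 7.23% in neutrophilic mice. Among genes for NF-kB subunits and early targets, 1 of 14 rose in eosinophilic, 6 in mixed and 10 in neutrophilic mice and none fell, and over 12 arrays the counts were 0, 0 and 1. Bcl3, a nuclear partner of NF-kB, had a log2 change of 2.21 in eosinophilic (adjusted p = 0.036), 3.19 in mixed (0.00107) and 3.37 in neutrophilic mice (0.000496). The inducible subunit genes Nfkb2 (1.59, adjusted p = 0.0348, and 1.81, 0.00893) and Relb (1.42, 0.0427, and 1.71, 0.00819) rose in mixed and neutrophilic mice, as did Ptgs2, the inducible cyclooxygenase gene (1.79, 0.00861, and 1.19, 0.0343). The list median was 1.45 in mixed and 1.76 in neutrophilic mice.

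Of the other Toll-like receptor genes none of 8 was called in any of the 3 groups in either fit, with medians of 0.14, 0.42 and 0.16 in eosinophilic, mixed and neutrophilic mice over 11 arrays. Tlr3, the receptor for double-stranded RNA, measured -0.77 in neutrophilic mice (adjusted p = 0.0833) and Tlr7, a receptor for single-stranded RNA, 0.83 (0.309). Among helpers and co-receptors 1 of 7 fell in neutrophilic mice, the scavenger receptor gene Cd36 (-1.71, adjusted p = 0.00165), while Lbp, which delivers lipopolysaccharide to Cd14, measured 1.17 in mixed mice (0.15). None of the 7 was called in eosinophilic or mixed mice, and over 12 arrays none was called in any group (Cd36 in neutrophilic mice, adjusted p = 0.266). Of 15 adaptor and kinase genes 1 rose in neutrophilic mice, Ticam1, the adaptor of the Myd88-independent arm (1.07, adjusted p = 0.0182), and none was called in the other groups. Over 12 arrays none of the 15 was called in any group (Ticam1 in neutrophilic mice, 0.184). Irak3, an inhibitor of Myd88 signalling in macrophages, measured 1.09 in mixed and 1.10 in neutrophilic mice (adjusted p = 0.187 and 0.0944).

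On the lectin side, 2 of 23 other C-type lectin genes rose in eosinophilic, 1 in mixed and 1 in neutrophilic mice, and 1 fell in neutrophilic mice. Clec10a, a macrophage galactose lectin gene, rose in eosinophilic (2.40, adjusted p = 0.00212), mixed (1.21, 0.0282) and neutrophilic mice (1.15, 0.0179). Its control values (3.84, 3.67 and 3.89) lay under log2 5, the floor used for dim genes. So did its neutrophilic values (4.997, 4.91 and 4.94) and that of mixed mouse 16 (4.82). The second gene in eosinophilic mice, named after its values were seen, was the mannose receptor gene Mrc1 (2.40, 0.0217). Clec1a, a lectin gene of endothelium, fell in neutrophilic mice (-2.80, 0.00192). Of 12 Syk and Card9 signalling genes 1 rose in mixed and in neutrophilic mice, Malt1, the protease partner of Bcl10 (2.38, adjusted p = 0.0181, and 1.90, 0.0275), and Syk itself measured 1.17 and 1.37 (0.428 and 0.165). Among 16 genes of ITAM adaptors, Fc receptors and related myeloid receptors and cytokines, 3 rose in eosinophilic, 7 in mixed and 6 in neutrophilic mice, and none fell. The inhibitory Fc receptor gene Fcgr2b (2.62, adjusted p = 0.0019, and 2.52, 0.00135), the activating Fcgr3, whose product pairs with Fcer1g (1.90, 0.0141, and 2.07, 0.00411), the inhibitory receptor gene Lilrb4a (2.39, 0.0019, and 2.43, 0.00104) and the cytokine gene Osm (2.14, 0.00179, and 2.98, 0.000119) were among them in mixed and neutrophilic mice. Fcgr2b (3.40, adjusted p = 0.00159), Fcgr3 (2.35, 0.0188) and Lilrb4a (2.01, 0.0242) were the 3 that rose in eosinophilic mice. Over 12 arrays the lectin list had 1 gene higher in eosinophilic and 1 lower in neutrophilic mice, the Syk list none, and the ITAM list 0, 1 and 2 higher in eosinophilic, mixed and neutrophilic mice.

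**Figure D3:**
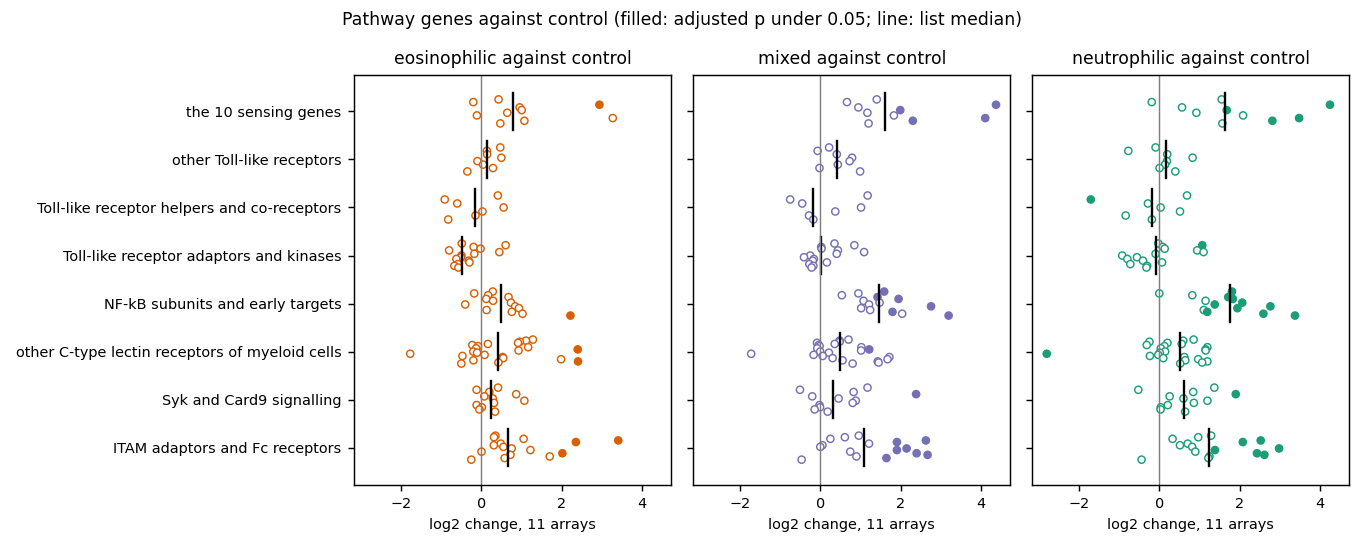
Log2 change against control over 11 arrays (horizontal axis) of the 10 sensing genes and of 7 pathway lists (rows) in eosinophilic, mixed and neutrophilic mice. Each point is a gene, filled where the adjusted p was under 0.05, and vertical bars are list medians. The NF-kB row has the highest median of the 7 lists in mixed (1.45) and neutrophilic mice (1.76).

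In whole lung, more cells of a type and more RNA per cell cannot be told apart, and most of the 10 genes are expressed by neutrophils, monocytes and macrophages. Neutrophil markers moved with them. Of 13 such markers none was called in eosinophilic, 8 rose in mixed and 10 in neutrophilic mice over 11 arrays (0, 1 and 6 over 12). Their mean level was 5.84 to 7.24 log2 in eosinophilic, 7.46 to 8.24 in mixed and 6.95 to 8.85 in neutrophilic mice, against 5.51 to 6.09 in control mice. S100a9, a calprotectin subunit gene, changed by 2.57 in mixed (adjusted p = 0.00764) and 3.34 in neutrophilic mice (0.000811). Of 12 monocyte and macrophage markers 1 rose in eosinophilic, 1 in mixed and 4 in neutrophilic mice, each time with the complement gene C1qb (2.77, 1.66 and 2.11, adjusted p = 0.0117, 0.0397 and 0.00577), and none was called over 12. Their mean level was 5.77 to 8.72 in eosinophilic, 7.48 to 8.32 in mixed and 7.21 to 8.70 in neutrophilic mice, against 6.85 to 7.30 in control mice. Markers of all leukocytes were called in no group in either fit (0 of 10), with list medians of 0.00, 0.47 and 0.66 in eosinophilic, mixed and neutrophilic mice over 11 arrays. The part of these cell types in the changes of the sensing genes was not tested.

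For the other cell types, over 11 arrays, 2 of 8 alveolar macrophage markers rose in each of the 3 models. They were the chitinase-like gene Chil3 (4.09, 4.11 and 3.65 in eosinophilic, mixed and neutrophilic mice) and Ctsk. The medians of this list were only -0.01, 0.08 and 0.16. Its mean level, which includes Chil3 and Ctsk, lay 0.52 to 0.73 above the control mean in mixed and 0.51 to 0.67 in neutrophilic mice. In eosinophilic mice it was -0.59 for mouse 7 and 0.75 and 0.59 for mice 8 and 9. Of 9 eosinophil markers 1 rose in each model, the ribonuclease gene Rnase2a (6.95, 5.65 and 4.36). Dendritic cell markers had 1 of 10 higher in neutrophilic mice (Itgax), mast cell markers 1 of 8 lower there (Kit), and the 7 B and T cell markers none. Lung epithelium had 1 of 10 markers lower in neutrophilic mice (Hopx), where 7.23% of all genes were called lower. Blood endothelium had 1, 2 and 5 of 10 lower in eosinophilic, mixed and neutrophilic mice, with the receptor gene Tek lower in all 3, and heart, liver and thymus genes had none of 9 called. Over all 12 arrays 1 alveolar macrophage marker (Chil3) and 1 eosinophil marker (Rnase2a) rose in each model, and no marker of the dendritic, mast, B and T cell, epithelial, endothelial or heart, liver and thymus lists was called.

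**Figure D4:**
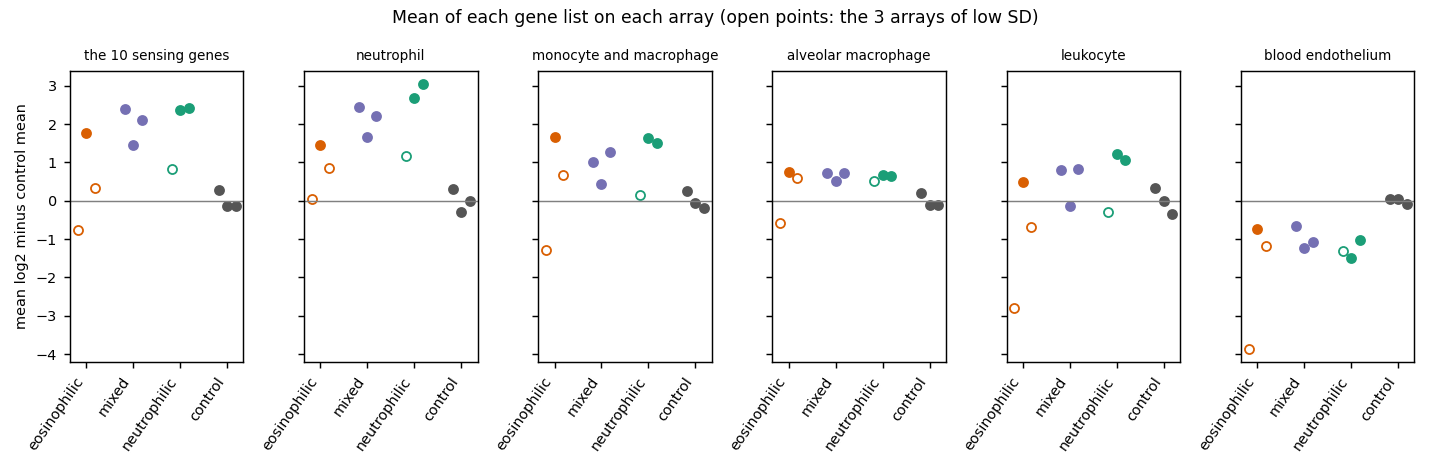
Mean log2 level of the 10 sensing genes and of 5 marker lists on each array, minus the control mean (vertical axis), by group (horizontal axis). Each point is 1 mouse, and open points are the 3 arrays of low SD (eosinophilic mice 7 and 9, neutrophilic mouse 23). The sensing genes stand at 1.46 to 2.40 in mixed and 0.82 to 2.42 in neutrophilic mice, against -0.14 to 0.28 in control mice.

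Genes with the profile most like each sensing gene were found by the root mean square (RMS) difference of log2 deviations from the control mean over 11 arrays, among 11867 genes with a mean of at least 5 log2. The nearest to Fcer1g was Tyrobp, another ITAM adaptor gene of myeloid cells (RMS difference 0.25 log2), and the nearest to Clec7a was the Fc receptor gene Fcgr4 (0.27). Clec4d was nearest to the neutrophil gene S100a8 (0.30), followed by Lrg1 (0.38) and the myeloid receptor gene Trem1 (0.39). For Clec4e the nearest were the chemokine gene Ccl9 (0.56), Acod1, the itaconate-forming enzyme gene of activated macrophages (0.57), and Il1rn, the IL-1 receptor antagonist gene (0.61). Cd14 was nearest to Steap4 (0.59), Ch25h (0.60) and the metallothionein gene Mt1 (0.64). For Myd88 these were Litaf (0.24), St3gal4 (0.25) and Maff (0.28), and for Tlr2 the tumour necrosis factor receptor gene Tnfrsf1b (0.22), Nlrp3 (0.24) and Itga7 (0.25). Clec4n had Slfn2 nearest (0.50), Tlr4 had Tmed5 (0.17) and Ly96 had Pgf (0.30). None of the 10 was among the 3 nearest genes of another, and the closest pair of them was Tlr2 with Myd88 (0.50). The measure also takes in what arrays share, such as their spread.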

How the data were processed

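Whole lung RNA of 12 mice (300 ng each) was labelled with biotin and hybridised, per the labels. The deposited log2 intensities, 1 for each probe set, were made by the authors. The submitters' processing notes name RMA and Affymetrix Expression Console, with no version in the sources used here. The columns nevertheless differed in SD, between 0.995 for eosinophilic mouse 7 and 2.04 for mixed mouse 15. Why they differed was not tested. That the base is 2 was taken from the range of values. The number of arrays limits the precision. The table held 34760 probe sets. Of these 21640 had 1 gene symbol, 1321 several and 11799 none in the platform annotation, and 21553 Entrez IDs matched RefSeq (GRCm38.p6). The probe set with the highest mean stood for a gene, which left 19937 genes. With R 4.3.3 and limma 3.58.1, lmFit took a mean for each of 4 groups over all 12 arrays, followed by contrasts and eBayes, two-sided, with Benjamini-Hochberg adjustment over all 19937 genes within a comparison and a threshold of 0.05. Labels give no batch or scan date, so none was modelled. The fit was tested on simulated data with known changes, drawn with the same spread of a gene on every array. Those data held no array like that of mouse 7, so the test does not show how the fit deals with one.

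The members, the 7 pathway lists, the 11 marker lists and the rule for naming genes were chosen with earlier results of these data known. All 10 members were named in every comparison, and from a list up to 4 genes with the smallest p in mixed or neutrophilic mice over 11 arrays. Alternatives changed the arrays (without mouse 7, each array of the 2 groups compared left out in turn, or only those 2 groups). Others dropped dim genes (kept if at least 3 arrays reached log2 5), centred arrays on their medians or applied quantile normalization. The rest turned on the trend and robust options of eBayes, or averaged the probe sets of a gene. Leaving out the 3 arrays of low SD, and quantile normalization of 11 arrays, were added after the data were seen.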

Additional observations from a re-analysis of the deposited data

How the results depend on the processing

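Over all 12 arrays the numbers of sensing genes called against control were 0, 1 and 2 in eosinophilic, mixed and neutrophilic mice, and those of all genes 99 (15 higher), 94 (65 higher) and 421 (132 higher). Without mouse 7 they were 1, 4 and 4, and 266, 596 and 1889. Fits of only the 2 groups compared gave 7 and 6 sensing genes in mixed and neutrophilic mice, and 0, 1689 and 2124 genes. The dim filter gave 237 genes in eosinophilic mice and median centring 14. The median change of all genes against control was -0.46 in eosinophilic and -0.20 in neutrophilic mice under the dim filter, and 0.12 in neutrophilic mice under centring, beside 0.01 and 0.05 without either. Quantile normalization gave 46 (36 higher), 102 (85 higher) and 288 (178 higher) genes, and 5 sensing genes in neutrophilic mice, while Cd14 in mixed mice missed the threshold (adjusted p = 0.0584). The trend and robust options gave 285, 240 and 694 genes and 3 sensing genes in mixed mice. With the settings added after the data were seen, leaving out the 3 arrays of low SD (which leaves 1 eosinophilic mouse, assumed to vary like the other groups) gave 5, 7 and 8 sensing genes and 432, 1859 and 3188 genes, and quantile normalization of 11 arrays 3, 5 and 7, and 384, 775 and 2018. Between models, the genes called in mixed against eosinophilic mice were 1 in the fit of 12 arrays, 10 without mouse 7, 0 with only those groups, 7 with trend and robust options, 24 without the 3 arrays and 17 with 11 arrays quantile normalized. In neutrophilic against eosinophilic mice they were 23, then 38, 0 with only those groups, 9 after quantile normalization, 265 without the 3 arrays and 122 with 11 normalized. In neutrophilic against mixed mice they were 0, and 53 without the 3 arrays.

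Directions turned as follows, on the log2 scale, and the cause was not tested. In eosinophilic against control mice, leaving out mouse 7 gave Myd88 1.0, Clec7a 0.64 and Fcer1g 0.47. Quantile normalization gave Myd88 0.54 and Fcer1g 0.79, and with 11 arrays Tlr4 0.017, Myd88 1.31, Clec7a 1.01 and Fcer1g 0.85. Without the 3 arrays Tlr4 was 0.22, Myd88 1.52, Clec7a 1.83, Clec4n 1.03 and Fcer1g 1.62. Tlr4 in neutrophilic against control mice was 0.058 and 0.061 after quantile normalization of 12 and 11 arrays. In mixed against eosinophilic mice Ly96 was -0.0056 without mouse 7, -0.062 after quantile normalization, and -1.01 without the 3 arrays, where Clec7a was -0.67 and Fcer1g -0.42. In neutrophilic against eosinophilic mice without the 3 arrays Tlr4 was -0.29 and Clec7a -0.19. In neutrophilic against mixed mice Cd14 was 0.085 and 0.089 after quantile normalization of 12 and 11 arrays, and without the 3 arrays Cd14 was 0.45, Myd88 0.061, Clec7a 0.47 and Clec4e 0.39.

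Arrays were also left out 1 at a time, each from the 2 groups compared. This gave 0 to 1 sensing genes and 1 to 8264 genes in eosinophilic against control mice. In mixed mice it gave 0 and 6 to 25, and in neutrophilic mice 0 to 4 and 17 to 365. Leaving out mouse 7, which is in neither of those groups, gave 4 and 596 in mixed and 4 and 1889 in neutrophilic mice. Between models, leaving out 1 array gave 0 to 8 and 0 to 5979 in mixed against eosinophilic mice. In neutrophilic against eosinophilic mice it gave 0 to 5 and 0 to 2777. Each highest count that involves eosinophilic mice was reached without mouse 8. The 1 sensing gene against control was then Tlr4, called lower (-1.15), and without mouse 7 it was Cd14, called higher. Estimates that changed sign ran, in eosinophilic against control mice, between -0.27 and 0.43 for Tlr2, -0.99 and 1.0 for Myd88, -1.48 and 0.64 for Clec7a, -1.08 and 0.064 for Clec4n and -0.87 and 0.47 for Fcer1g. Ly96 ran between -0.27 and 0.74 in mixed against eosinophilic and between -0.65 and 0.35 in neutrophilic against eosinophilic mice. In neutrophilic against mixed mice the ranges were -0.42 to 0.81 for Tlr2, -0.54 to 0.45 for Cd14, -0.68 to 0.061 for Myd88, -0.93 to 0.47 for Clec7a, -0.21 to 0.95 for Clec4n and -1.18 to 0.39 for Clec4e. No paired analysis was possible because the groups share no replicate numbers. Groups of 3 mice limit what could be detected, and a call missed here does not show that a gene did not differ.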
